A study of Mus musculus with 47 samples.

Results

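Acetylation of histone H3 at lysine 27 (H3K27ac) was compared between mouse liver tumours driven by Myc and control livers, using the deposited H3K27ac peak list of each sample. All lists with that antibody from tumours with Myc on or from control livers were taken, which gave 8 of the 47 samples of the series (46 of the 47 have a peak list). The 4 tumours carried the tet-Myc and LAPtTA transgenes, with tet-Myc expression on. LAPtTA is a liver-specific driver, and expression had been induced before birth. The 4 control livers came from 1 tet-Myc mouse with expression off (control liver 1), 1 LAPtTA mouse (control liver 2) and 2 wild-type mice (control livers 3 and 4). All mice were of the FVB strain, and no ages are given. A further 3 H3K27ac lists, from tet-Myc/LAPtTA tumours whose transgene had been switched off with doxycycline food for 16 h, were used only as a set beside the comparison. Tumours and control livers are tissue pieces, so fewer cells of one type and less acetylation within cells cannot be told apart. The liver identity of the tissue was not checked against marker genes, because the lists are on the mouse build mm9 and no gene annotation of that build was used here. For the same reason regions are named by position and no sequence is shown.

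H3K27ac lies at promoters and enhancers that are in use, and it is written by the acetyltransferases p300 and CBP. H3K4me3, trimethylation of histone H3 at lysine 4, marks promoters, so an H3K27ac region with H3K4me3 is likely to hold a transcription start, and one without it is a candidate enhancer. RNA polymerase II (RNAPII) is found at start sites and along transcribed genes. Myc is a transcription factor that binds E-boxes at active promoters and, when it is abundant, at many enhancers. In adult liver, long stretches of H3K27ac are known to cover the genes of hepatocyte metabolism.

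Read depth is unknown, since peak lists carry no counts of reads. A peak says that the authors' caller found enrichment in that sample, and a region without a peak is below the caller's threshold, not free of the mark. The tumour lists held 15510, 13726, 14014 and 12805 peaks (tumours 1 to 4), against 9696, 11202, 14140 and 13573 peaks in control livers 1 to 4. Peaks covered 141, 104, 139 and 113 Mb in the tumours, against 72.9, 90.5, 147 and 153 Mb in the control livers. Control livers 1 and 2 stood apart from both wild-type control livers. They had the shortest lists, the smallest covered length and the lowest median peak scores (1955 and 2091, against 2756 to 3390.0 in the other 6 libraries), the score being the authors' own value per peak. The identifiers in the file headers were grouped here into series by their first 3 digits, and the headers themselves name no series or batch. By these digits control livers 1 and 2 fall in one series with tumours 1 and 2. Control livers 3 and 4 fall in one series with tumour 3, while tumour 4 has a series of its own. In the control livers the identifier series and the genotype therefore cannot be told apart, and the counts of called regions below are given with and without control livers 1 and 2.

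Peak number, covered length and peak width did not separate tumours from control livers. Tumours had 14014 ± 1123 peaks and control livers 12153 ± 2074 (SD, n = 4 each; two-sided exact permutation p = 0.2, 0.6 after Benjamini-Hochberg adjustment over 6 measures). Covered length was 124 ± 18.8 Mb in tumours and 116 ± 40.2 Mb in control livers (exact permutation p = 0.714). The median peak was 6.39 ± 0.598 kb wide in tumours and 6.64 ± 1.01 kb wide in control livers (exact permutation p = 0.686). The smallest p that 4 against 4 libraries allow is 0.0286. Against the wild-type control livers alone the difference was -26.1 Mb in covered length, -1.08 kb in median width and -8.56 percentage points in the share of peaks of at least 10 kb (exact permutation p = 0.133 for each, where 4 against 2 cannot go below 0.0667). The share of peaks at H3K4me3 was 76.5 ± 4.23% in tumours and 76.6 ± 1.27% in control livers (exact permutation p = 0.971). Distal peaks, those without H3K4me3, numbered 3326 ± 861 in tumours and 2862 ± 628 in control livers (exact permutation p = 0.486). They were wider than peaks at H3K4me3 in each of the 8 libraries, with medians of 7.21 to 10.2 kb against 5.03 to 6.92 kb.

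**Figure D1:**
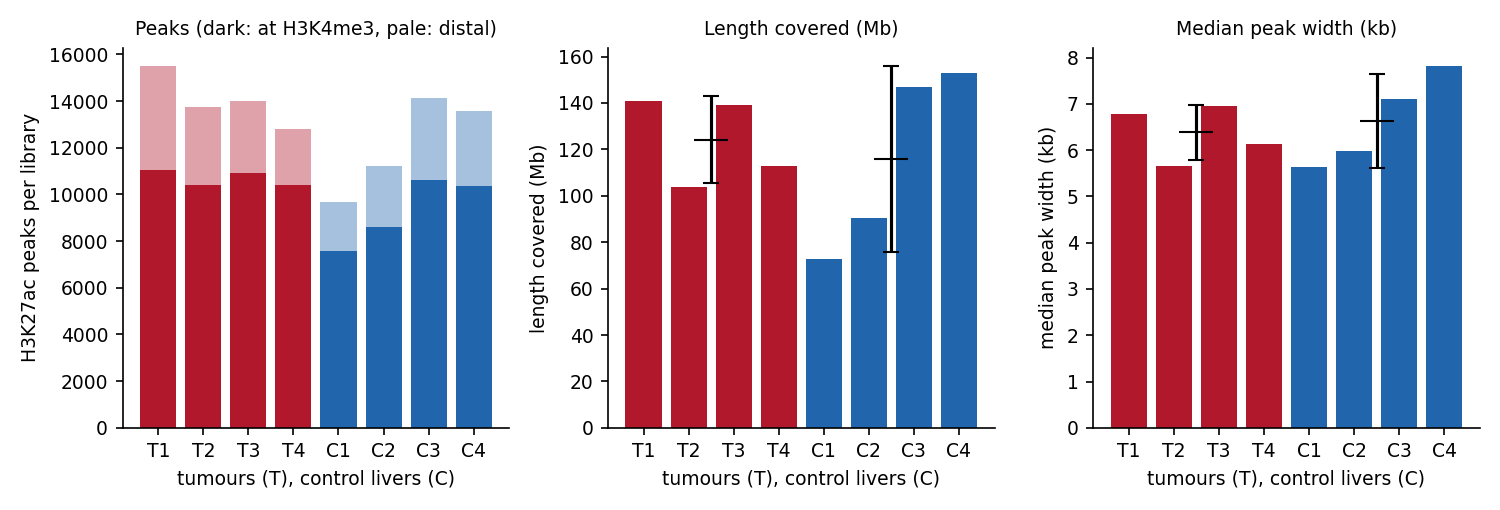
H3K27ac peaks (number, split into peaks at H3K4me3 in dark and distal peaks in pale), covered length (Mb) and median peak width (kb) in each tumour (T1 to T4, red) and control liver (C1 to C4, blue). Black marks are group means with SD (n = 4 each), and control livers 1 and 2 are the lowest for number and length.

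What differed was where the mark lay. The Jaccard index, the length shared by a pair of lists as a percent of the length covered by either, was 56.1 to 63% between tumours, 32.7 to 43.9% between a tumour and a control liver, and 43 to 64.7% between control livers. Every pair of tumours thus shared more than every pair of a tumour and a control liver. Among control livers the wild-type pair shared 64.7% and the pair of control livers 1 and 2 shared 57%. Control liver 1 shared only 43 and 44.1% with the wild-type control livers, which overlaps with the values between tumours and control livers. These pairs share libraries, so they are given without a test.

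Merging the 8 lists wherever peaks overlapped by at least 1 bp gave 17481 regions. Of these, 2377 had a peak in 1 library alone, most often tumour 1 (685) or control liver 3 (569), and were set aside. The 15104 regions with a peak in at least 2 libraries comprised 11125 at H3K4me3 and 3979 distal ones. A peak was present in all 8 libraries at 6024 regions (39.9%). At 955 regions (6.32%) every tumour and no control liver had a peak, and at 522 regions (3.46%) every control liver and no tumour had one. Distal regions made up 50.5% of the first set and 51.7% of the second, against 26.3% of all tested regions. Without control livers 1 and 2, the counts were 1009 and 1440 of 14792 regions, so the order of the 2 sets turned round. There a peak was asked of 4 tumours but only 2 control livers, which makes the second set easier to enter. With 2 against 2, the counts were 1321 and 1799 in tumours 3 and 4 against control livers 3 and 4. They were 3605 and 831 in tumours 1 and 2 against control livers 1 and 2.

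**Figure D2:**
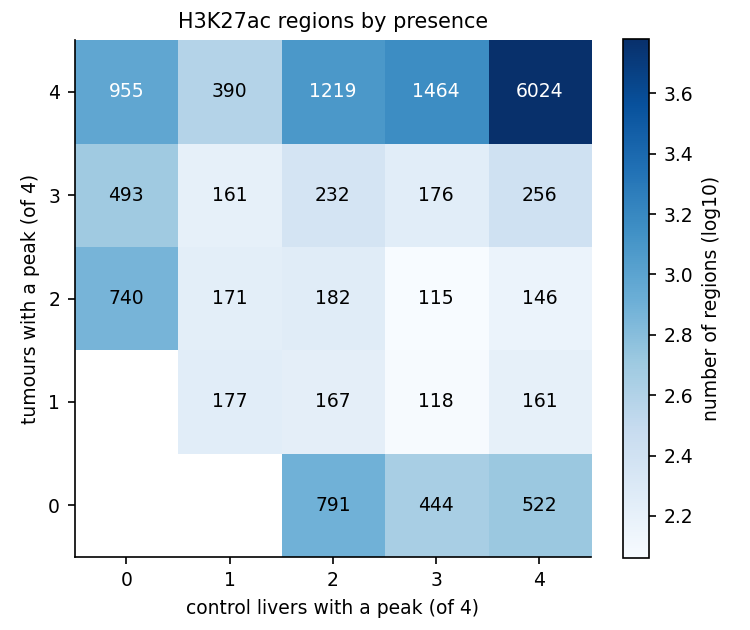
Number of H3K27ac regions by how many of 4 tumours (vertical axis) and of 4 control livers (horizontal axis) had a peak there; colour gives the count on a log10 scale. The corners hold 6024 regions in all 8 libraries, 955 in every tumour and no control liver, and 522 in every control liver and no tumour, and regions in fewer than 2 libraries are left blank.

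The percent of each region covered by a library's peaks was then compared with limma, a linear model with moderated errors, and adjusted by Benjamini-Hochberg over all 15104 regions. Coverage differed at 3161 regions (20.9%), with 2038 regions higher in tumours (13.5%) and 1123 lower (7.44%). The median difference over all tested regions was itself 8.25 percentage points towards tumours. Against the wild-type control livers alone, limma called 3659 of 14792 regions (24.7%), of which 1172 were higher (7.92%) and 2487 lower (16.8%), so the balance of directions rests on control livers 1 and 2. The balance also turned when each library's mean coverage was a covariate, with 2052 regions higher and 2356 lower, and in tumours 3 and 4 against control livers 3 and 4, with 1124 higher and 1721 lower. Of the regions first called, 1147 of the 2038 higher and 1003 of the 1123 lower ones were called in the same direction with the wild-type control livers alone, and 0 in the other direction. In tumours 1 and 2 against control livers 1 and 2 and again in tumours 3 and 4 against control livers 3 and 4, 700 of the higher and 435 of the lower regions were called in the same direction. Leaving out tumour 1 lowered the higher calls to 1331, and leaving out tumour 2 or tumour 4 lowered the lower calls to 746 and 740.

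Most called regions had a peak in one group and none in the other. Of the 2038 higher regions, 1082 (53.1%) had no peak in any control liver and 249 (12.2%) had a peak in all 4. Of the 1123 lower regions, 651 (58%) had no peak in any tumour and 267 (23.8%) had a peak in all 4. A peak in every library of one group and none of the other was found at 44.7% of higher and 42.3% of lower regions. Over all tested regions these patterns made up 6.32 and 3.46%. Of those 955 and 522 regions 910 and 475 were called, so the pattern is partly built into a test of percent covered. The mean percent covered over the higher regions was 82.8, 66.9, 80.2 and 70 in tumours 1 to 4, against 4.5, 6.89, 15.4 and 14.9 in control livers 1 to 4. Over the lower regions it was 13.4, 9.95, 11 and 9.3 in the tumours, against 60.1, 67.7, 84 and 86 in the control livers. These values describe the regions that the test picked and test nothing further. Over the 11943 regions not called, the tumours were at 58.7, 42.8, 55.2 and 43.8, against 27.5, 35.7, 58.6 and 62.8 in the control livers. There the wild-type control livers lay among or above the tumours, and control livers 1 and 2 lay below every tumour.

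Distal regions were called more often than regions at H3K4me3, in both directions. Of the 3979 distal regions 18.5% were higher in tumours and 11.6% lower. Of the 11125 regions at H3K4me3 11.7% were higher and 5.96% lower. Against the wild-type control livers alone the distal shares were 11.9% higher and 29.1% lower, against 6.59% and 12.6% at H3K4me3. The order of the 2 classes was therefore the same with and without control livers 1 and 2. At H3K4me3, lower regions had a median length of 17.2 kb and higher regions 10.3 kb, whereas distal lower regions had a median of 12.5 kb and distal higher regions 12.8 kb. Peaks at regions present in every tumour and no control liver were weak within their own lists, with median score percentiles of 25.6 to 41.3. Peaks at regions present in every control liver and no tumour had median percentiles of 36.6 to 43.6.

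The longest regions of each kind are described next. They were picked for having a peak in every library of one group and none in the other, so their separation is a description. At H3K4me3, the region on chromosome 9 from 114424277 to 114476948 (52672 bp) was covered to 96.5, 98.2, 87.4 and 96.1% in tumours 1 to 4, against 0% in all 4 control livers (limma adjusted p = 0.000545). All 4 tumours were almost fully covered. RNAPII peaks, which had no part in the choice, covered 48.5 ± 26.5% of it in tumours and 0% in control livers (SD, n = 4 each), and H3K4me3 covered 26.8 ± 2.03% in tumours and 2.91 ± 3.7% in control livers. The region on chromosome 4 from 62621122 to 62677496 was covered to 100.0, 85.8, 96.2 and 89.7% in the tumours, against 0% in the control livers, with RNAPII at 16.9 ± 18% in tumours and 0% in control livers. That RNAPII value came from 3 of 4 tumours, as the fourth had no RNAPII peak there. The H3K27ac call of this region was lost with peaks above the median score alone (limma adjusted p = 0.135). It was also lost with lists of equal length (limma adjusted p = 0.0667). The longest such region at H3K4me3 lay on chromosome 11 from 108068457 to 108138959 (70503 bp) and was covered to 94.9, 63.3, 88.1 and 77.2% in the tumours. Its call was lost with peaks above the median score alone (limma adjusted p = 0.0514).

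At a pair of the long regions with H3K27ac in tumours alone, control livers had RNAPII. The region on chromosome 2 from 32474368 to 32531622 was covered by H3K27ac to 55.8, 28.3, 99.1 and 90.2% in tumours 1 to 4, against 0% in the control livers (limma adjusted p = 0.0101). Tumour 2 was the lowest, and the call was lost with the wild-type control livers alone (adjusted p = 0.0678), without tumour 3 (0.0506) and without tumour 4 (0.064). RNAPII covered 3.07 to 37.9% of it in tumours and 25.3 to 46.9% in control livers, and H3K4me3 9.33 ± 2.14% in tumours and 12.8 ± 5.3% in control livers (SD, n = 4 each). Both ranges of RNAPII overlap, and both groups had an RNAPII peak in 4 of 4 libraries. The other was the distal region on chromosome 9 from 70698411 to 70751380. H3K27ac covered 58.7, 27.7, 92.1 and 61.6% of it in the tumours and 0% in the control livers (limma adjusted p = 0.02). RNAPII had no peak there in any tumour, whereas 3 of 4 control livers had one, covering 0 to 100% of the region. This call was lost with the wild-type control livers alone (adjusted p = 0.0587) and without tumour 1 (0.0688), tumour 3 (0.312) or tumour 4 (0.233).

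The longest distal region with H3K27ac in tumours alone was on chromosome 7 from 137912562 to 137991634 (79073 bp). It was covered to 89.8, 68.9, 95.9 and 97.7% in tumours 1 to 4, against 0% in the control livers (limma adjusted p = 0.000569), with a Myc peak in 6 of 6 tumours profiled for Myc and in 1 of 4 control livers. No H3K4me3 peak lay in it in any of the 8 libraries. The next, on chromosome 2 from 169552952 to 169631398 (78447 bp), was covered to 72.6, 64.9, 86.3 and 94% in the tumours and 0% in the control livers. RNAPII reached only 0.668 ± 1.34% of it in tumours and 0% in control livers (SD, n = 4 each), while Myc peaks were present in 6 of 6 tumours and in 0 of 4 control livers. A further pair of distal regions of this kind lost their call when 1 library was left out, on chromosome 7 from 56410466 to 56482464 without tumour 3 (adjusted p = 0.0948) and on chromosome 6 from 86543268 to 86599628 without tumour 3 (0.0685) or tumour 4 (0.0633).

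The 5 longest regions at H3K4me3 that lacked H3K27ac in tumours had RNAPII peaks in all 4 control livers. On chromosome 17 from 87149112 to 87206606 (57495 bp), H3K27ac covered 0% in each tumour, against 69, 70, 94 and 100.0% in control livers 1 to 4 (limma adjusted p = 0.000709). RNAPII covered 1.05 to 7.59% of it in tumours and 44.3 to 93% in control livers, and the groups did not overlap. H3K4me3 was present there in every library, at 8.37 ± 1.53% in tumours and 10.2 ± 0.764% in control livers (SD, n = 4 each). On chromosome 6 from 85766821 to 85820885 (54065 bp) neither H3K27ac, RNAPII nor H3K4me3 had a peak in any tumour. In control livers 1 to 4 H3K27ac covered 62.3, 46.4, 97 and 98.5% of that region, RNAPII 15.8 to 39.8% and H3K4me3 8.17 to 12.8%. The longest such region at H3K4me3, on chromosome 9 from 32499532 to 32561274 (61743 bp), was covered to 0% in the tumours, against 7.81, 72.5, 96.2 and 72.4% in the control livers. Control liver 1 was far below the other 3, and the call (limma adjusted p = 0.0279) was lost on leaving out any library but control liver 1, with adjusted p = 0.0578 to 0.0994. Its adjusted p was 0.00167 with the wild-type control livers alone.

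Among distal regions that lacked the mark in tumours, the one on chromosome 6 from 35213015 to 35262125 (49111 bp) had H3K27ac at 0% in the tumours, against 22.5, 48.2, 86.7 and 93.7% in control livers 1 to 4 (limma adjusted p = 0.0208, and 0.0872 without control liver 4). RNAPII was at 0% in every tumour and at 3.53 to 31.7% in the control livers. On chromosome 8 from 47947841 to 47994758 H3K27ac was at 0% in the tumours, against 39, 41.2, 79.2 and 100.0% in the control livers (limma adjusted p = 0.0131, and 0.0766 without control liver 3). In both regions the wild-type control livers were the highest. RNAPII covered 0% of the second in tumours and 7.9 to 14.4% in control livers. The remaining lower regions named by the rule lay on chromosome 5 from 140646933 to 140703091, on chromosome 4 from 47237272 to 47285093, on chromosome 12 from 25928818 to 25969841, and on chromosome 18 from 9780560 to 9824528 and from 75592554 to 75633083. The remaining higher one lay on chromosome 2 from 153330015 to 153389926 and was covered to 72.7, 72.8, 96.9 and 91.8% in tumours 1 to 4 and 0% in the control livers. All 10 lower regions named here were called with the wild-type control livers alone, as were 8 of the 10 higher ones. When each of the 8 libraries was left out in turn, 6 of the 10 higher and 3 of the 10 lower regions were called every time. Of all 26 named regions, which include those compared by width below, only 6 kept their call with peaks above the median score alone. With lists of equal length 17 of the 26 kept it, and 13 did when only the blocks that the files list within peaks were counted.

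The other marks moved with H3K27ac at the called regions, although their lists had not been used to call them. RNAPII peaks covered 24.4, 25.9, 32.4 and 16.3% of the higher regions in tumours 1 to 4, against 15.8, 10.1, 10.8 and 12.7% in control livers 1 to 4 (24.8 ± 6.6% in tumours and 12.3 ± 2.57% in control livers). They covered 8.95, 9.15, 13.5 and 4.59% of the lower regions in the tumours, against 40.5, 29.2, 27 and 29.5% in the control livers (9.06 ± 3.65% in tumours and 31.6 ± 6.09% in control livers). In both sets the groups did not overlap, with the smallest exact permutation p of 0.0286 that 4 against 4 allow (0.0429 adjusted over 9 tests). At higher regions this call was lost on leaving out any 1 of the 4 RNAPII control liver libraries, with differences of 11.7 to 13.6 percentage points (exact permutation p = 0.0571 each). At lower regions it held without each library. At regions not called, RNAPII covered 25.6 ± 7.22% in tumours and 27.8 ± 4.09% in control livers (SD, n = 4 each; exact permutation p = 0.657). H3K4me3 did likewise, at 22.3 ± 1.84% in tumours and 15.2 ± 1.44% in control livers over higher regions, and at 7.48 ± 0.703% in tumours and 15.4 ± 2.03% in control livers over lower regions (SD, n = 4 each; exact permutation p = 0.0286, 0.0429 adjusted, for both). For RNAPII, H3K4me3 and Myc, control livers 3 and 4 were picked by number, as genotype was taken from the labels for the H3K27ac lists only. With 4 tumours and these 2 control livers the smallest exact permutation p is 0.0667, so no test of RNAPII or H3K4me3 can pass. The differences then were 13 and -19.2 percentage points for RNAPII and 5.9 and -9.28 points for H3K4me3 over higher and lower regions. The H3K4me3 lists carry the same header identifiers as the H3K27ac lists, so H3K4me3 and H3K27ac may share their tissue.

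At lower regions at H3K4me3, RNAPII was present in 50.8 ± 3.51% of regions per tumour and 93.5 ± 3.31% per control liver, and H3K4me3 in 63.7 ± 1.35% per tumour and 95.4 ± 3.21% per control liver (SD, n = 4 each). At distal lower regions RNAPII was present in 9.67 ± 3.96% per tumour and 54.2 ± 18.6% per control liver. Higher regions at H3K4me3 had an RNAPII peak in 90.7 ± 3.2% of regions per tumour and 65 ± 3.87% per control liver. At regions with H3K4me3, then, RNAPII was often present also in the group with less H3K27ac. H3K4me3 was often present there too, but these regions were classed by the same H3K4me3 lists, so its presence is partly built in.

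Read the other way, a change in H3K4me3 or RNAPII went with a change in H3K27ac in the same direction. At 229 tested regions H3K4me3 was present in at least 2 tumours and no control liver, and 116 of these (50.7%) were higher in H3K27ac and 1 was lower, against 13.5% and 7.44% of all tested regions. At 603 regions H3K4me3 was present in at least 2 control livers and no tumour, and 218 of these (36.2%) were lower in H3K27ac and 15 were higher. RNAPII gave the same picture. Of 652 regions with RNAPII in at least 2 tumours and no control liver, 418 (64.1%) were higher in H3K27ac, and of 1311 regions with RNAPII in at least 2 control livers and no tumour, 467 (35.6%) were lower. Without control livers 1 and 2 these shares were 39.3% higher and 58.2% lower for H3K4me3 and 47.6% higher and 60.8% lower for RNAPII, against 7.92% and 16.8% of all regions tested then. Changes without H3K4me3 were nonetheless common. Of 3608 regions with no H3K4me3 peak in any of the 8 libraries, 692 (19.2%) were higher in H3K27ac and 395 (10.9%) lower.

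**Figure D3:**
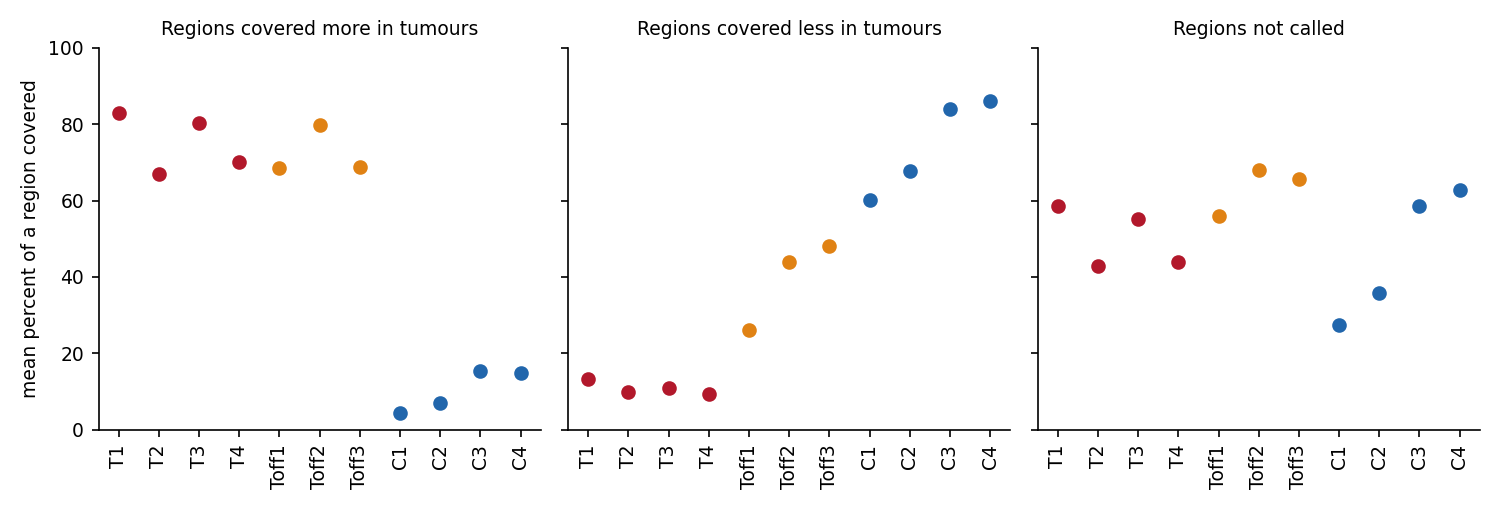
Mean percent of a region covered by H3K27ac peaks in each tumour (T, red), each tumour with tet-Myc switched off (Toff, orange) and each control liver (C, blue), over regions called higher in tumours, called lower, and not called. Tumours and control livers lie far apart in the first 2 panels because the regions were picked on them, and switched-off tumours, which had no part in the choice, lie with the tumours in the first and between the groups in the second. The lists of switched-off tumours covered more length as a whole than those of all tumours with Myc on and control livers.

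The switched-off tumours were not used to pick the regions. Over the higher regions their H3K27ac lists covered 68.4, 79.8 and 68.7% on average, against 66.9 to 82.8% in tumours with Myc on. Over the lower regions they covered 26.1, 44 and 48.1%, above the 9.3 to 13.4% of tumours with Myc on and below the 60.1 to 86% of control livers. Over regions not called they covered 55.9, 68.1 and 65.7%, against 42.8 to 58.7% in tumours with Myc on. Switched-off tumour 1 was within the range of the tumours with Myc on there, and the other 2 were above it. The lists of switched-off tumours were longer as a whole, covering 168, 214 and 214 Mb, against 104 to 141 Mb in tumours with Myc on. Their median peak widths were 8.79, 8.9 and 8.55 kb, against 5.66 to 6.95 kb. How far this raised their coverage of the lower regions was not tested. Of the 955 regions with a peak in every tumour with Myc on and no control liver, 634 (66.4%) had a peak in all 3 switched-off tumours. That is below the 74% of all tested regions that had one in all 3. Of the 522 regions with a peak in every control liver and no tumour with Myc on, 91 (17.4%) had a peak in all 3 switched-off tumours and 175 (33.5%) in none. Over all tested regions these shares were 74% and 7.95%. The regions had been chosen on tumours with Myc on and control livers, so a test against either group would be biased and none was made. The header identifiers of the switched-off tumours also belong to other series than those of all 8 libraries compared here.

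Regions higher in H3K27ac mostly held Myc peaks in every tumour, and lower regions seldom did. A Myc peak was present in all 6 tumours profiled for Myc at 1610 of the 2038 higher regions (79%), 305 of the 1123 lower regions (27.2%) and 64.5% of regions not called. At regions with a peak in every control liver and no tumour, Myc was present in all 6 tumours at 18 of 522 (3.45%) and in none at 141 (27%). At regions with a peak in every tumour and no control liver, Myc was present in all 6 tumours at 708 of 955 (74.1%) and in none at 2. The share of regions higher in H3K27ac went up with the number of tumours that had Myc there, at 0.916, 1.2, 4.64, 8.46, 10.4, 12.1 and 16.7% for 0 to 6 tumours. The share lower in H3K27ac was 28.9, 30.1, 22.9, 13.5, 9, 5.53 and 3.17% for 0 to 6 tumours. Regions with Myc in 0 to 3 tumours were thus more often lower than higher, and those with Myc in 4 to 6 more often higher than lower. Against the wild-type control livers alone the share higher was 0.382% with Myc in 0 tumours and 9.83% with Myc in 6, and the share lower was 88.7% with Myc in 0 tumours and 8.06% with Myc in 6. With Myc in 4 or 5 tumours the order then turned round, with 5.08 and 6.83% higher and 17.1 and 12.7% lower. Only with Myc in 6 tumours were regions then more often higher than lower.

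**Figure D4:**
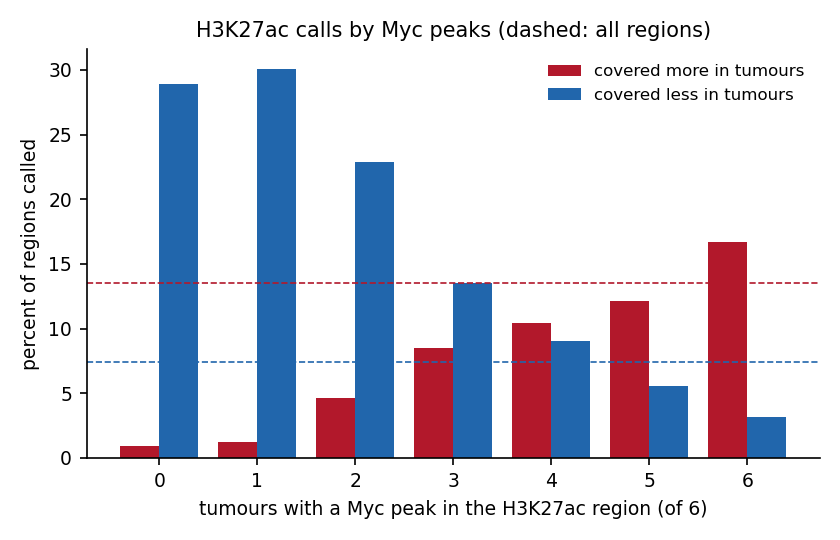
Percent of tested H3K27ac regions called higher (red) or lower (blue) in tumours, by the number of tumours (0 to 6) with a Myc peak in the region. Dashed lines give the shares over all tested regions, 13.5% higher and 7.44% lower; the share higher goes up at each step, and the share lower goes down from 1 tumour (30.1%) to 6 (3.17%).

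Myc peaks covered 15.4 ± 8.57% of the higher regions in tumours and 0.344 ± 0.607% in control livers (SD, n = 6 tumours and 4 control livers; exact permutation p = 0.0143, 0.0429 adjusted over 9 tests). Over the lower regions they covered 4.23 ± 3.29% in tumours and 0.51 ± 0.741% in control livers (exact permutation p = 0.0476, which did not pass adjustment at 0.0612). Over regions not called Myc covered 12.8 ± 6.98% in tumours and 0.709 ± 1.24% in control livers (exact permutation p = 0.0143, 0.0429 adjusted). Myc was therefore also above control livers where H3K27ac was not called. At distal higher regions a Myc peak was present in 88.5 ± 9.45% of regions per tumour and 2.71 ± 1.76% per control liver. At distal lower regions it was present in 35.9 ± 23% per tumour and 11.7 ± 7.62% per control liver (SD, n = 6 tumours and 4 control livers).

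Width was compared at the 6024 regions with a peak in all 8 libraries, as the log2 of the bp covered. Limma called 415 regions (6.89%), with 189 wider in tumours (3.14%) and 226 narrower (3.75%), and the median difference over all shared regions was 0.04 on the log2 scale. At wider regions the group means had a median of 14.3 kb in tumours and 4.89 kb in control livers, and at narrower regions 6.26 kb in tumours and 19.3 kb in control livers. All 189 wider regions and 219 of the 226 narrower ones had groups that did not overlap. Over all 6024 shared regions, every tumour was wider than every control liver at 465 (7.72%) and narrower at 453 (7.52%), so most regions with separate groups were not called. H3K4me3 lay at 179 of the wider and 215 of the narrower regions. RNAPII covered 19.8, 20.7, 29.4 and 11.8% of the narrower regions in tumours 1 to 4, against 52.2, 41.2, 40.9 and 42.7% in control livers 1 to 4, and these groups did not overlap. Over the wider regions RNAPII covered 31.5, 33, 42.3 and 23.7% in the tumours, against 26, 19.7, 20.3 and 23.4% in the control livers, where tumour 4 was below control liver 1. Over all shared regions it covered 32.2, 33.4, 44.9 and 23.9% in the tumours, against 43.1, 33.4, 34.8 and 39.2% in the control livers, and the groups overlapped. Without control livers 1 and 2, 213 regions were wider and 404 narrower. The calls were also sensitive to single libraries. Without tumour 1, tumour 3 or tumour 4 the wider calls fell to 84, 101 and 124, and without tumour 4, control liver 3 or control liver 4 the narrower calls fell to 139, 128 and 133.

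The 3 regions that were widest in tumours relative to control livers, and the 3 narrowest, were all at H3K4me3. They were picked among called regions whose groups did not overlap, so their separation is a description. On chromosome 1 from 75499473 to 75520898, H3K27ac covered 19967, 19550, 18794 and 17170 bp in tumours 1 to 4, against 1180, 2032, 1214 and 2223 bp in control livers 1 to 4. The log2 difference was 3.56 (SE 0.26, limma adjusted p = 0.000211). RNAPII, which had no part in the choice, covered 46.8 ± 2.63% in tumours and 5.07 ± 2.06% in control livers (SD, n = 4 each). On chromosome 17 from 48014721 to 48197557 the covered length was 168926, 139966, 165266 and 155766 bp in the tumours, against 2873, 4915, 27153 and 31099 bp in the control livers. Control livers 1 and 2 were the lowest (log2 difference 3.91, SE 0.70, adjusted p = 0.0104, and 1.81 with adjusted p = 0.163 without tumour 1). The region on chromosome 10 from 77556947 to 77638712 had a log2 difference of 3.16 (SE 0.40, adjusted p = 0.00207), which became 0.09 without tumour 4 (adjusted p = 0.919), where the merge gave other region limits.

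The 3 regions that were narrowest in tumours were picked in the same way. On chromosome 1 from 123207404 to 123254287, H3K27ac covered 3329, 4636, 1770 and 1842 bp in tumours 1 to 4, against 29728, 26709, 46884 and 31818 bp in control livers 1 to 4 (log2 difference -3.63, SE 0.35, limma adjusted p = 0.000639). RNAPII covered 3.72 ± 0.991% of that region in tumours and 40 ± 16.3% in control livers (SD, n = 4 each). On chromosome 9 from 69118166 to 69191209 the covered length was 14681, 2911, 4353 and 3140 bp in the tumours, against 61060, 29393, 68146 and 60287 bp in the control livers (log2 difference -3.41, SE 0.51, adjusted p = 0.00475). Tumour 1 was the highest of the tumours. On chromosome 13 from 74620551 to 74641754 the log2 difference was -3.22 (SE 0.24, adjusted p = 0.000211), and it became 0.18 (adjusted p = 0.691) when only the blocks that the files list within peaks were counted.

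The X chromosome had more H3K27ac peaks in most tumours than in the control livers. Tumours 1 to 4 had 280, 228, 244 and 201 peaks on it, against 32, 72, 203 and 185 in control livers 1 to 4. Of 284 tested regions on X, 63 were higher in tumours (22.2%) and 1 was lower (0.352%), against 13.5% and 7.44% of all tested regions. The mean coverage of X regions divided by that of autosomal regions was 1.1, 1.22, 0.931 and 1.02 in tumours 1 to 4, against 0.195, 0.36, 0.721 and 0.716 in control livers 1 to 4. All control livers were below all tumours, the wild-type ones by the least (1.07 ± 0.124 in tumours and 0.498 ± 0.263 in control livers, SD, n = 4 each; exact permutation p = 0.0286, for a comparison made after the values had been seen). Without control livers 1 and 2, 31 of 280 X regions were higher (11.1%) and 14 lower (5%), against 7.92% and 16.8% of all regions tested then. Over the same regions the ratio for H3K4me3 was 2.06 ± 0.2 in tumours and 2.1 ± 0.265 in control livers (exact permutation p = 0.743), and for RNAPII 1.4 ± 0.337 in tumours and 1.12 ± 0.232 in control livers (exact permutation p = 0.257). The labels give no sex for these mice, and its part was not tested. Calls on autosomes alone numbered 1985 higher and 1128 lower.

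**Figure D5:**
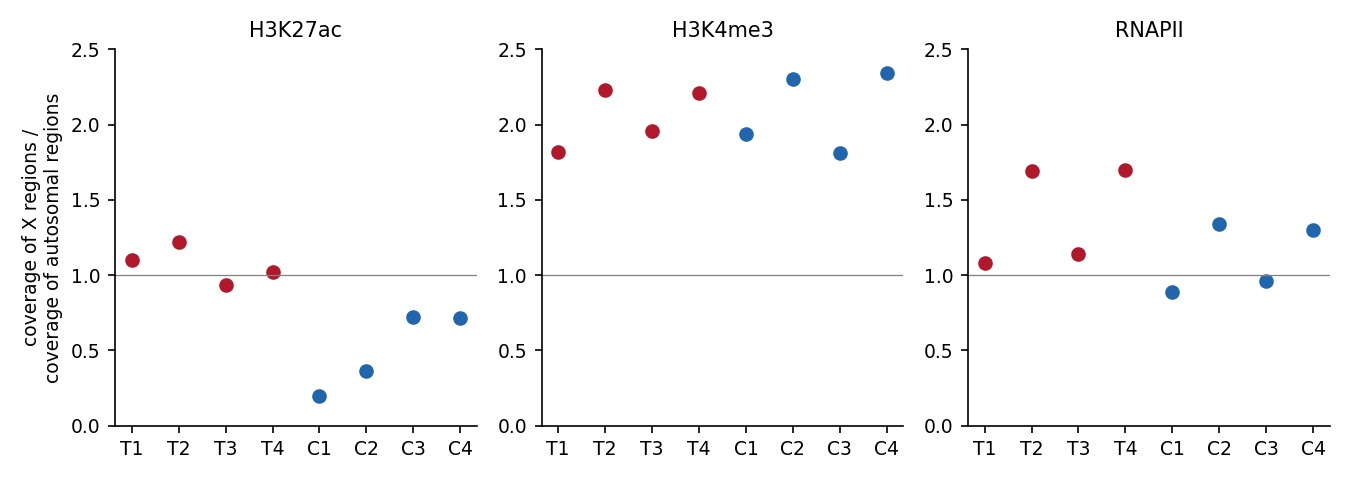
Mean percent covered of X-chromosome regions divided by that of autosomal regions, for H3K27ac, H3K4me3 and RNAPII peaks in each tumour (T, red) and control liver (C, blue); the line marks a ratio of 1. For H3K27ac the tumours (0.931 to 1.22) all lie above the control livers (0.195 to 0.721), and the groups overlap for the other 2 antibodies.

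Windows of 1 Mb with the most calls in 1 direction were picked after the values had been seen. They are given as a description, and whether calls cluster more than tested regions do was not tested. On chromosome 17 from 28929582 to 29854650, 12 of 21 tested regions were higher in tumours and 0 lower. The called regions there were covered over 83.9, 68.4, 84.4 and 75.1% of their length in tumours 1 to 4, against 5.81, 4.75, 52.5 and 23.2% in control livers 1 to 4, and control liver 3 came nearest to the tumours. On chromosome 13 from 21258648 to 22145717, 10 of 28 regions were higher, all of them at H3K4me3, with 89, 78.9, 72.3 and 75% covered in the tumours, against 12, 7.38, 9.51 and 9.91% in the control livers. RNAPII covered 46.5 ± 10.1% of these in tumours and 20.6 ± 5.79% in control livers (SD, n = 4 each). The window with most lower calls lay on chromosome 18 from 38405171 to 39304126, with 8 of 19 regions lower and 0 higher. There 8.96, 2.19, 18.7 and 3.91% of the called length was covered in tumours 1 to 4, against 52.5, 82.3, 91.4 and 93% in control livers 1 to 4. Windows with 7 lower regions lay on chromosome 4 from 140791027 to 141518736 (of 23, with 3 higher) and on chromosome 14 from 35047962 to 35975444 (of 14, with 1 higher) and from 45982738 to 46648041 (of 15, with 0 higher). In the last of these, 11.3, 6.82, 9.49 and 3.35% of the length was covered in the tumours, against 78.6, 69.3, 92.5 and 90% in the control livers. RNAPII covered 1.74 ± 0.462% of that length in tumours and 26.7 ± 13.2% in control livers (SD, n = 4 each).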

How the data were processed

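Peak lists of tumour and control liver tissue from chromatin immunoprecipitation were used as deposited. Alignment with BWA 0.6.2 and the use of SAMtools are per the submitters' processing notes, as is the build mm9. Peaks carry MACS names and broad format per the file headers; version and threshold are not given in the sources used here. Each deposited list holds 1 interval per peak, with inner blocks and the authors' score, per library and not pooled. The score was used only to rank peaks within a list or to filter them. From these lists covered lengths, percent covered and log2 covered bp were computed with Python 3.11.15. Percent covered and log2 covered bp were tested with limma 3.58.1 (R 4.3.3, trend), Benjamini-Hochberg over all regions, call at adjusted p below 0.05. The fits were also run on simulated data, with residuals shuffled across libraries within each region. Such shuffling does not keep the lower coverage of control livers 1 and 2, so the simulation cannot tell how that affects the calls. H3K4me3 regions were those in at least 2 of the 8 H3K4me3 lists, which gave 16532. Regions were named by rule as the 5 longest per direction and class with a peak in every library of 1 group and none of the other. The 3 largest width changes each way were also named, among called shared regions whose groups did not overlap. Members, lists and tests were chosen with earlier results of these data known. Header identifiers differ between libraries, but no source states that each is another animal; if not, p-values cover only technical spread. Samples were not paired by replicate number.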

Additional observations from a re-analysis of the deposited data

Results flagged for a closer look

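In 82 groups of 4 or 6 libraries, 4 values lay far from the others of their group, and chance alone marks about 1 group in 20. Control liver 4 had more Myc peak coverage than the other 3 control livers in each set of H3K27ac regions. It was 1.25% over regions higher in tumours, where the others were at 0.015 to 0.0626%, and 1.62% over lower regions, where the others were at 0.0511 to 0.238%. Over regions not called it was 2.57%, where the others were at 0.0405 to 0.141%. Tumour 1 kept 20.1% coverage by H3K27ac on chromosome 9 from 69118166 to 69191209, where the other tumours were at 3.99 to 5.96%.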

How the results depend on the processing

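The counts of regions higher and lower in coverage (2038 and 1123) were 350 and 38 with peaks above the median score, 1014 and 876 with lists of equal length, 5250 and 1573 with blocks alone, 1172 and 2487 with wild-type control livers alone, 2052 and 2356 with mean coverage as a covariate, 3273 and 777 in tumours 1 and 2 against control livers 1 and 2, and 1124 and 1721 in tumours 3 and 4 against control livers 3 and 4. The share of calls that were higher, 64.5%, was 90.2, 53.7, 76.9, 32, 46.6, 80.8 and 39.5% under these. Leaving out 1 library gave 1331 to 2112 higher and 740 to 1268 lower, and without control liver 1 the share higher was 54.1%. All 11 H3K27ac libraries in 1 fit gave 1585 and 1056 and the split of libraries 1 and 2 from 3 and 4 as a covariate 2418 and 1344; this covariate and the fits within each side of the split were chosen after seeing the data.

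Wider and narrower regions (189 and 226) were 15 and 19 above the median score, 106 and 157 with equal lists, 100 and 25 with blocks, 213 and 404 with wild-type control livers, 294 and 283 with 11 libraries, 230 and 529 with mean coverage as a covariate, 377 and 358 with widths centred per library, and 9 and 41 within tumours 3 and 4 and control livers 3 and 4. Within tumours 1 and 2 and control livers 1 and 2 limma called 0 and 0, with 1243 at an unadjusted p under 0.05. Leaving out 1 library gave 84 to 214 wider and 128 to 295 narrower.

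Regions in every tumour and no control liver, and the reverse (955 and 522), were 427 and 44 above the median score, 475 and 515 with equal lists, 2485 and 1306 with blocks, 1009 and 1440 with wild-type control livers, 3605 and 831 and then 1321 and 1799 within the 2 sides of the split, and 968 to 1233 and 538 to 760 without 1 library. Fisher's exact test on presence called 0 and 0 after adjustment, with 1477 at an unadjusted p under 0.05, since its smallest p is 0.0286.

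Differences between tumours and control livers in library measures changed sign under some settings, none past the threshold. Covered length was -4.17 Mb with equal lists and -26.1 Mb with wild-type control livers, median width 0.0855 kb with blocks, blocks per peak -0.186 above the median score, peaks at H3K4me3 4.83 points with equal lists and 0.781 with wild-type control livers, and length at H3K4me3 -0.173 points with blocks and -2.26 with H3K4me3 regions of control livers. Without 1 library, peaks ranged over 1042 to 2523, covered length -6.23 to 20.5 Mb, median width -0.587 to 0.143 kb, peaks of 10 kb or more -4.77 to 0.676 points, blocks per peak -0.0789 to 0.258, peaks at H3K4me3 -1.65 to 1.69 points and length at H3K4me3 -2.11 to 2.68 points. The share of peak length in blocks ranged over 3.68 to 6.65 points and passed the threshold without control liver 3 (exact permutation p = 0.0286).

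With control livers 3 and 4 of each antibody alone, picked by number, RNAPII differed by 13 points at higher and -19.2 at lower regions. H3K4me3 differed by 5.9, -9.28 and, at regions not called, -0.54 points, and 4 against 2 cannot pass the threshold. Myc then differed by 14.8, 3.4 and 11.5 points and did not pass (exact permutation p = 0.107, 0.214 and 0.107), although 6 against 2 could. Without 1 library the ranges were, for RNAPII, 9.89 to 15.2 at higher (exact permutation p = 0.0571 without any 1 of the control livers), -24 to -19.5 at lower and -5.43 to 0.393 at other regions, for H3K4me3 6.45 to 7.87, -8.78 to -7.15 and 0.000747 to 1.49, and for Myc 12 to 16.7, 2.61 to 4.3 and 9.73 to 13.5. On chromosome 13 from 74620551, the width difference turned to 0.18 with blocks. The causes were not tested.

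Samples with the same replicate number had deviations correlated at 0.114, 0.00408, 0.0342 and 0.092. Tumours 1, 3 and 4 correlated best with the control liver of their own number, and tumour 2 with control liver 4 (0.0192). Control liver 2 correlated best with tumour 1 (0.0946) and control liver 3 with tumour 4 (0.0782). The labels do not say that a number is a shared animal or batch, so the numbers were not taken to pair samples. With a replicate block, coverage gave 2134 higher and 1116 lower, and width 123 wider and 143 narrower. Depth is unknown, which limits every presence value.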

Other observations

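The share of H3K27ac regions higher in tumours hardly varied with region length, at 13% under 5 kb, 12.4% from 5 to 10 kb, 14.9% from 10 to 20 kb, 13.2% from 20 to 50 kb and 14.4% above. The share lower in tumours was 2.69, 5.27, 9.3, 11.1 and 10.3% over the same lengths, so short regions were seldom lower. Myc peaks were present in at least 2 control livers at 5.35% of regions higher in tumours, 18.6% of lower regions and 12.8% of regions not called. On chromosome 2 from 167743403 to 168615432, 8 of 18 H3K27ac regions were higher in tumours, with RNAPII over 26.8 ± 19.7% of them in tumours and 5.71 ± 2.36% in control livers (SD, n = 4 each).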
